A study of Rattus norvegicus with 15 samples.

Results

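The miRNAs described here are encoded between the genes Dlk1 and Dio3, in an imprinted region of rat chromosome 6. They were chosen by miRNA number: every rat miRNA probe of the panel whose number is one of 42 numbers of this cluster was taken, whatever its letter or arm. That gave 47 of the 420 rat miRNA probes, from 41 of the 42 numbers (miR-679 had no probe). The rule reads miRNA numbers and no measured value, but it was written with earlier results of these data known. Each count was set against the background of its own lane, taken as the mean plus 2 SD of the lane's 8 negative probes, which have no target in the sample. The nCounter assay counts hybridized colour-coded probes one by one without amplification, and 1 lane is 1 sample.

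The study profiled isolated adult cardiomyocytes of Sprague Dawley rats in 5 groups of 3 samples. The first group was healthy cells treated in vitro with doxorubicin (DOX), an anthracycline cancer drug that damages the heart, for 6 h, and its control was healthy cells given saline vehicle in vitro for 6 h. The other groups were cells from hearts of rats given repeated DOX injections until heart failure, cells from hearts 4 weeks after ligation of the left coronary artery (myocardial infarction, MI), and cells from healthy age-matched rats. Cells of all groups were plated on laminin for 1 h and only the attached viable cells gave RNA. Nothing in the labels ties the 3 samples of a group to different animals or cell isolations, so the spread behind each p-value is that of these 3 samples and may be technical.

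In mammals the Dlk1-Dio3 region carries one of the largest groups of miRNAs. They are processed from the maternally expressed noncoding transcripts Meg3, Rian and Mirg, and some lie antisense to the paternally expressed Rtl1. The cluster is best known for high levels in embryo, placenta and brain, and in muscle its miRNAs are generally higher in fetal and newborn tissue than in the adult.

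All 47 probes matched a rat miRNA gene of RefSeq (build GRCr8), at 43 hairpins that all lie between Dlk1 (chr6:134192491-134199779) and Dio3 (chr6:135107072-135108933). The hairpins run from Mir770 (start 134298084) to Mir410 (end 134579838) and form 2 blocks. One block, of 13 probes, spans 56.5 kb around Meg3 and Rtl1, and the other, of 34 probes, spans 36.4 kb from Mir379 to Mir410. The gap between them is 189 kb. Only 8 of the 47 probe names state the arm of the hairpin, so most probes cannot be tied to the 5′ or the 3′ product from the name alone.

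The sequences that carry the findings are those of the 2 members that were ever counted above background, miR-543 and miR-409-5p. They are shown 5′ to 3′ as RefSeq gives them, with the seed (bases 2 to 8) in capitals. Both products of the Mir543 hairpin are given because its probe name states no arm. miR-495, a neighbouring member, shares an 11-base run with miR-543-3p outside the seed, and the other arm of the Mir409 hairpin was measured by a probe of its own.

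miR-543-5p: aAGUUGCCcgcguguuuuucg
miR-543-3p: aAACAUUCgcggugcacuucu
miR-495: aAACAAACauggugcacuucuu
miR-409a-5p: aGGUUACCcgagcaacuuugcau
miR-409a-3p: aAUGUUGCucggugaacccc

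The hairpins of these 2 members lie on the plus strand at chr6:134552405-134552484 (Mir543) and chr6:134579185-134579261 (Mir409). In the hairpins, capitals mark the 2 mature products.

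Mir543 hairpin: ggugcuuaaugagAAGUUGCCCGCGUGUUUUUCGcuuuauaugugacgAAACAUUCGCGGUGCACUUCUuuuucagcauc
Mir409 hairpin: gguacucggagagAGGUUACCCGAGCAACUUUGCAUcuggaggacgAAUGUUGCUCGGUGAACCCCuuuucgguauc

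Members have little seed in common. RefSeq gives 79 mature miRNAs at the 43 hairpins with 75 distinct seeds, and 3 seeds are shared. One of these joins miR-539-3p to miR-381-3p. miR-539 was the member closest to detection among those never counted above background. Neither probe name states the arm, so the counted product may be the 5′ one, which has another seed.

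miR-539-3p: cAUACAAGgguaauuucuuuuc
miR-381-3p: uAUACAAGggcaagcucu

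The Dlk1-Dio3 miRNAs were almost entirely at background in these cardiomyocytes. Of 705 member values (47 probes in 15 lanes), 11 were above the lane threshold (1.56%), against 1324 of 5595 values of the other 373 rat miRNA probes (23.7%). Of the 47 members, 2 were above background in at least 1 lane and 1 in at least 3 lanes; of the other 373 probes, 135 were above in at least 1 lane and 108 in at least 3. No lane had more than 1 member above its threshold, while 73 to 108 of the other probes passed it. The highest member count in the whole series was 71, for miR-543 in 1 vehicle sample.

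**Figure D1:**
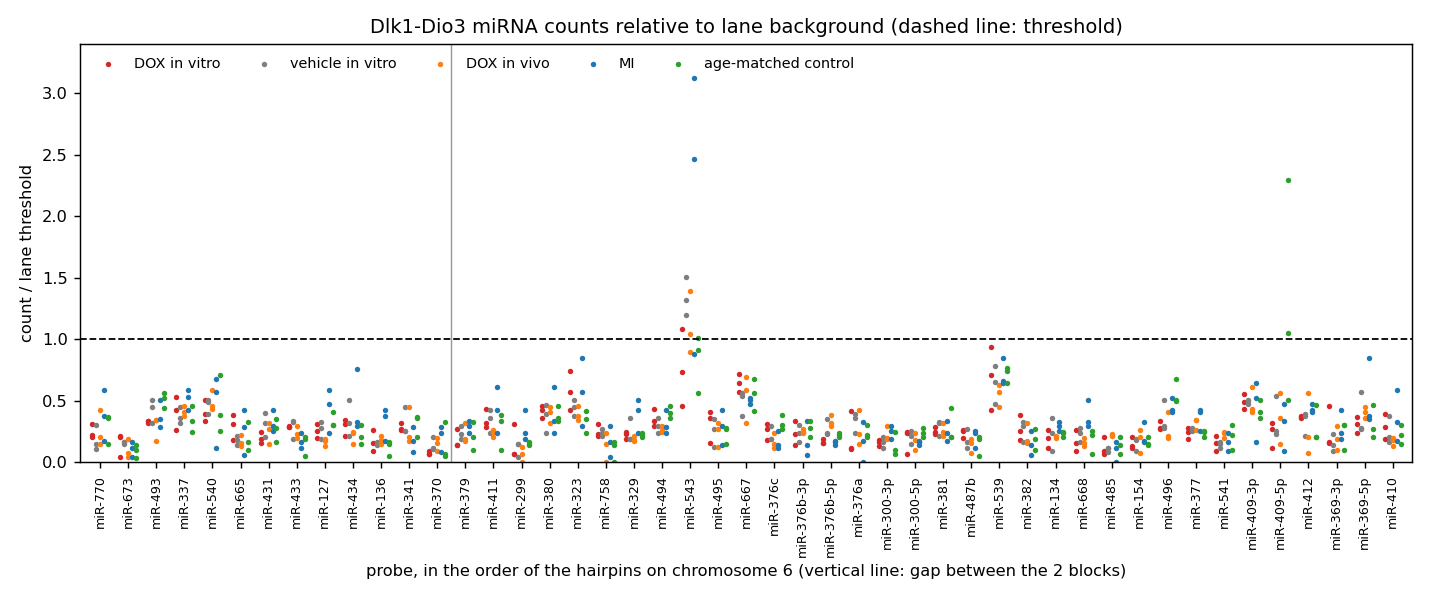
Counts of the 47 probes divided by the lane threshold (vertical axis, ratio without unit), with the probes in the order of their hairpins on chromosome 6 and 1 point for each of the 15 samples, coloured by group. Points above the dashed line passed the threshold of their lane: 9 for miR-543 and 2 for miR-409-5p, and none for the other 45 probes.

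Lane depth and background set what could be seen. Total rat miRNA counts ranged from 36977 to 137746 per lane, lowest in 1 age-matched control sample, and the threshold ranged from 11.8 counts in 1 MI lane to 47.2 counts in 1 vehicle lane. The cells carried their defining miRNAs: all 5 cardiomyocyte miRNAs of the marker list were above background in all 15 lanes, with summed counts of 9262 to 42932. The positive control labelled 0.5, the second most dilute of the 6, passed the threshold in 14 of 15 lanes, and the most dilute passed it in none. Member counts above the 0.5 control occurred 7 times, in 2 members. The 3 in vitro DOX lanes were read at another stage position of the instrument than the other 12 lanes, so treatment and position cannot be told apart in any comparison that involves in vitro DOX.

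The negative probes are not uniform, and this bears on how low the members lie. NEG_C and NEG_D averaged 24.4 and 31.3 counts over the 15 lanes while the other 6 averaged 4.93 to 13.9, and in 12 of 15 lanes those 2 were the highest negative probes. The 5 non-mammalian spike-in probes averaged 6.13 to 9.40 counts each, and members averaged 4.33 to 38.7 counts each with a median of 8.67. The 238 other rat miRNA probes that never passed the threshold had a median of 9.90 counts. Within lanes, the mean member count was 0.72 to 0.94 times the mean of the negative probes in 14 lanes and 1.33 times in MI sample 1. Against the median of the negative probes, which the high ones move less, the mean member count was 0.89 to 1.86 times as high. That sets a mean against a median. The median member count was at or above the negative-probe median in 10 of 15 lanes. Against the mean of the spike-in probes the mean member count was 0.80 to 1.58 times as high, and above it in 14 of 15 lanes. The mean member count was above the mean of the never-detected other miRNAs in 8 of 15 lanes and below it in the rest.

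**Figure D2:**
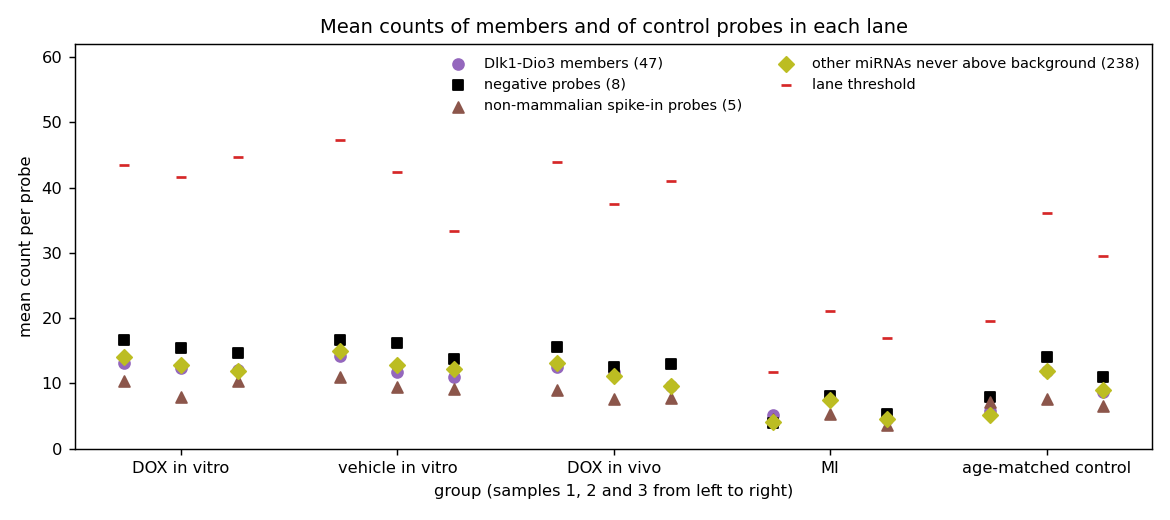
Mean count per probe (vertical axis, counts) in each of the 15 lanes for the 47 members, the 8 negative probes, the 5 spike-in probes and the 238 other rat miRNAs that never passed the threshold, with the threshold as a dash. The member means (4.64 to 14.2 counts) move with the control probes from lane to lane and lie below the threshold in every lane.

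With a threshold built from the spike-in probes instead (their lane mean plus 2 SD, an alternative chosen after seeing the data), 35 members passed in at least 1 lane and 17 in at least 3, with 2 to 25 members per lane. The same threshold passed 263 of the other 373 probes in at least 3 lanes. miR-539 passed it in all 15 lanes and miR-543 in 14, while miR-667, miR-323 and miR-409-3p passed it in 12 each and miR-540 in 10. These 4 and miR-539 were also the 5 highest of the members never above the negative-probe threshold, with mean ratios to it of 0.66 for miR-539, 0.55 for miR-667, 0.47 for miR-409-3p, 0.46 for miR-323 and 0.45 for miR-540. The number of members counted as detected therefore differed with the control probes that set the threshold.

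miR-539 had 31, 39 and 19 counts in DOX-treated cells in vitro, against 31, 20 and 26 counts in vehicle. In vivo it had 25, 17 and 26 counts in DOX hearts and 10, 14 and 11 counts in MI hearts, against 15, 27 and 19 counts in age-matched controls. DOX and vehicle samples overlapped, and the 3 MI counts were below all age-matched control counts. Relative to the lane threshold the MI samples (mean ratio 0.72 ± 0.11, SD, n = 3) and the age-matched controls (0.72 ± 0.07, SD, n = 3) had the same mean: the MI lanes had thresholds of 11.8 to 21.1 counts, against 19.6 to 36.2 counts in the age-matched control lanes.

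The 5 zero counts among the members fell on miR-299, miR-376a, miR-485 and miR-758. miR-758 was at 0 in 1 in vivo DOX sample and in 1 age-matched control sample, miR-299 in 1 in vivo DOX sample, and miR-376a and miR-485 in 1 MI sample each. A count of 0 allows up to 3 counts, which is 22.4 CPM (counts scaled to the lane total) in in vivo DOX sample 1 and 81.1 CPM in age-matched control sample 1. These limits cover counting error only.

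Among members with known roles, 4 examples stayed below the threshold in every lane. miR-127 and miR-433, which in mouse lie antisense to Rtl1 and guide cleavage of its transcript, had 4 to 13 and 1 to 16 counts per lane. miR-410 and miR-495, which promote division of newborn rat cardiomyocytes in culture, had 3 to 17 counts each. The highest of their ratios to the lane threshold was 0.59.

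Both blocks of the cluster were low. In the Meg3 and Rtl1 block, probe means ran from 4.33 to 15.5 counts with a median of 8.93, and none of the 13 probes passed the threshold in any lane. In the block from Mir379 to Mir410, probe means ran from 4.47 to 38.7 counts with a median of 8.37, and the 2 members ever above background lay there. The members on either side of miR-543, miR-494 and miR-495, had mean ratios to the threshold of 0.33 and 0.26, and neither passed the threshold in any lane.

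miR-543 was the member with the most counts and the only one that passed the filter for testing, which asked for at least 3 of 15 lanes above background. It had 47, 19 and 33 counts in DOX-treated cells in vitro, against 71, 51 and 44 counts in vehicle. In vivo it had 61, 39 and 37 counts in DOX hearts and 37, 52 and 15 counts in MI hearts, against 11, 33 and 30 counts in age-matched controls. Every vehicle sample was above its lane threshold, as were 1 of 3 in vitro DOX, 2 of 3 in vivo DOX, 2 of 3 MI and 1 of 3 age-matched control samples. DOX and vehicle counts overlapped in vitro through DOX sample 1, in vivo DOX lay above all age-matched controls in raw counts, and MI overlapped them. Exact Poisson 95% intervals were wide: 8.40 to 24.7 for the 15 counts of MI sample 3 and 55.5 to 89.6 for the 71 counts of vehicle sample 1.

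Scaled to CPM with TMM factors, which rest on the bulk of the tested miRNAs, miR-543 averaged 367 ± 146 CPM in DOX-treated cells in vitro and 406 ± 79 in vehicle (SD, n = 3 each). It averaged 546 ± 64 CPM in in vivo DOX and 616 ± 294.8 in MI, against 443 ± 122 in age-matched controls (SD, n = 3 each). On this scale all these groups overlapped, and the order of the means was MI, in vivo DOX, age-matched control, vehicle, in vitro DOX, and means next to each other in this order differed by less than the larger of their SDs.

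miR-543 was not called in any of the 6 comparisons with edgeR's quasi-likelihood test, adjusted over all 109 tested miRNAs at 0.05. Its log2 fold change was -0.14 (SE 0.33, adjusted p = 0.727) for in vitro DOX against vehicle, a comparison in which 30.3% of the tested miRNAs were called. For in vivo DOX against age-matched controls it was 0.25 (SE 0.35, edgeR adjusted p = 0.665, 3.67% of tested miRNAs called), and for MI against age-matched controls 0.43 (SE 0.35, edgeR adjusted p = 0.376, 37.6% called). In vivo DOX against MI gave -0.18 (SE 0.34, edgeR adjusted p = 0.748, 32.1% called), and vehicle in vitro against age-matched controls gave -0.16 (SE 0.34, edgeR adjusted p = 0.779, 18.3% called). The difference between the in vivo and the in vitro effect of DOX was 0.40 (SE 0.48, edgeR adjusted p = 0.891, 0.917% called). Its unadjusted p was above 0.05 in all 6 comparisons, and DESeq2 called it in none. The SEs of 0.33 to 0.48 leave changes of that size undetectable at this depth.

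The MI value of miR-543 depended on how lanes were scaled. The 6 positive controls form a dilution series that is spiked into every lane in the same amounts. They summed to 4229, 9661 and 6389 counts in the MI lanes, against 10053, 18360 and 17516 counts in the age-matched control lanes. Per 1000 positive-control counts, miR-543 stood at 5.49 ± 3.20 in MI samples and 1.53 ± 0.38 in age-matched controls (SD, n = 3 each). With this scaling its log2 fold change in MI was 1.79 (SE 0.47, edgeR adjusted p = 0.0065) and it was called; without the 3 samples least like their replicates (sample 3 of in vitro DOX, sample 1 of in vivo DOX and sample 3 of MI), a choice made after seeing the data, it was called as well, at 0.74 with TMM (edgeR adjusted p = 0.016). Scaling on the 4 housekeeping mRNA probes gave -0.10 (edgeR adjusted p = 0.871), so neither the direction nor the call held across scalings.

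**Figure D3:**
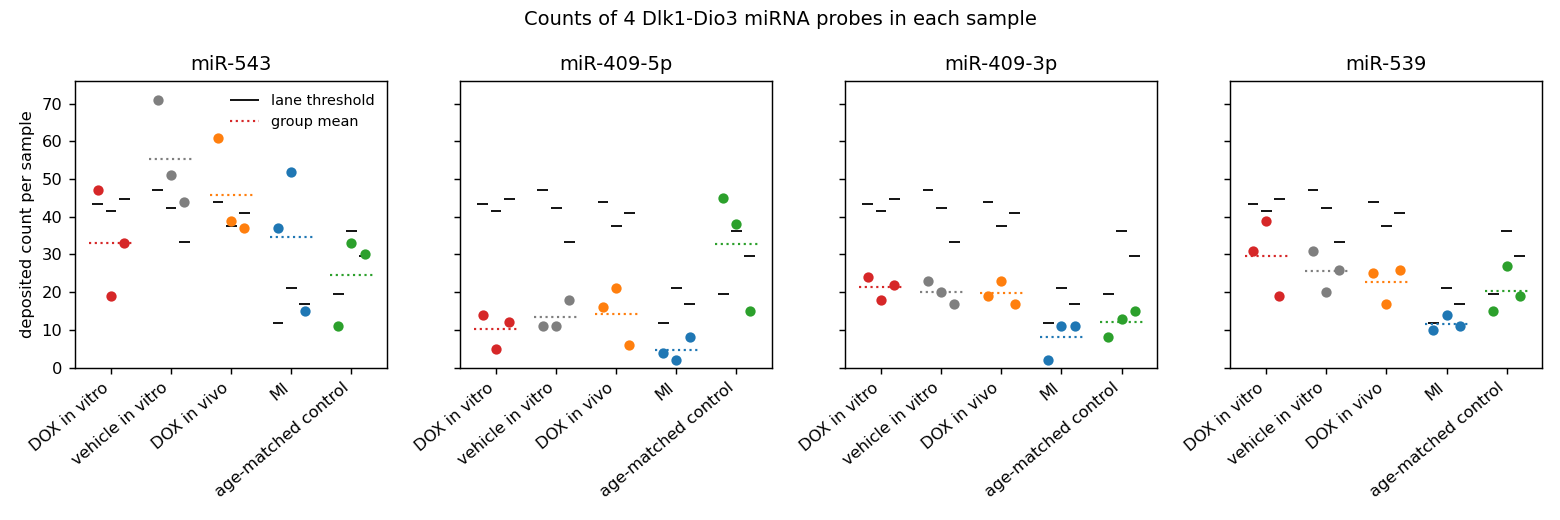
Deposited counts (vertical axis) of miR-543, miR-409-5p, miR-409-3p and miR-539 in each sample, with 3 points per group, the group mean as a dotted line and the threshold of each lane as a black dash. miR-543 lies around the thresholds, miR-409-5p is above them only in 2 age-matched control samples (45 and 38 counts), and the other 2 probes are below them in every sample.

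miR-409-5p was above background in 2 lanes, both age-matched controls. It had 14, 5 and 12 counts in DOX-treated cells in vitro, against 11, 11 and 18 counts in vehicle. In vivo it had 16, 21 and 6 counts in DOX hearts and 4, 2 and 8 counts in MI hearts, against 45, 38 and 15 counts in age-matched controls. Age-matched control samples 1 and 2 were higher than every other sample of the series, whereas sample 3, at 15 counts (exact Poisson 95% interval 8.40 to 24.7), lay within the range of the DOX and vehicle samples. On the TMM scale the age-matched controls stood at 1238, 604 and 251 CPM; the 3 MI samples (25.7 to 159) and the 3 vehicle samples (76.8 to 143) lay below all of them, and in vivo DOX (99.7 to 288) overlapped them.

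The other arm of the same hairpin was at background in every lane, so its counts cannot show whether it followed. miR-409-3p had 24, 18 and 22 counts in DOX-treated cells in vitro, against 23, 20 and 17 counts in vehicle. In vivo it had 19, 23 and 17 counts in DOX hearts and 2, 11 and 11 counts in MI hearts, against 8, 13 and 15 counts in age-matched controls. The 5p probe made up 84.9%, 74.5% and 50.0% of the counts of both arms in the 3 age-matched controls. That share needs no scaling between lanes, but it sets 2 different probes against each other, 1 of them at background. In in vivo DOX the share was 45.7%, 47.7% and 26.1%, in MI samples 66.7%, 15.4% and 42.1%, in in vitro DOX 36.8%, 21.7% and 35.3%, and in vehicle 32.4%, 35.5% and 51.4%. Exact binomial 95% intervals, which cover counting error only, were 72.4% to 93.3% in age-matched control sample 1 and 31.3% to 68.7% in sample 3 of the same group, so samples of that group differed by more than counting error. By these intervals age-matched control sample 3 and MI sample 1 (22.3% to 95.7%, from 6 counts) overlapped the DOX and vehicle samples. The interval of age-matched control sample 2 (60.4% to 85.7%) overlapped those of vehicle sample 3 (34.0% to 68.6%) and of in vivo DOX samples 1 and 2. It also overlapped those of MI sample 3 (20.3% to 66.5%) and MI sample 1. Outside its own group, the interval of age-matched control sample 1 overlapped only that of MI sample 1. The share was not tested.

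Because miR-409-5p passed the threshold in 2 lanes, it entered no test under the filter. Lifting the filter also moved the TMM factors onto all 420 miRNAs, of which 283 never passed the threshold. With all 420 miRNAs tested, it was lower in MI than in age-matched controls, at a log2 fold change of -2.31 (SE 0.66, edgeR adjusted p = 0.032), and lower in vehicle in vitro than in age-matched controls, at -2.002 (SE 0.52, edgeR adjusted p = 0.028). In those fits 10.2% and 6.19% of the 420 miRNAs were called. In vivo DOX against age-matched controls gave -1.68 (SE 0.51, edgeR adjusted p = 0.127), and in vitro DOX against vehicle gave -0.32 (SE 0.63, edgeR adjusted p = 0.924). All of these comparisons except in vitro DOX against vehicle share the age-matched controls. The 2 lanes for which miR-409-5p was named are lanes of that same group. A lower value than in age-matched controls thus partly restates how it was picked and is no separate support. The MI call was lost without MI sample 1 (-2.35, edgeR adjusted p = 0.075) or 2 (-1.69, edgeR adjusted p = 0.196), and with scaling on the positive controls (-1.69, edgeR adjusted p = 0.076). The vehicle call was lost without vehicle sample 1 (-1.82, edgeR adjusted p = 0.095) or 2 (-1.88, edgeR adjusted p = 0.090). It was also lost without age-matched control sample 1 (-1.38, edgeR adjusted p = 0.056) or 2 (-2.14, edgeR adjusted p = 0.054). The fold thus stayed negative in each of these fits.

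Between these groups endothelial miR-126, the 1 measured probe of its list, ran the opposite way to miR-409-5p: it had 2348 to 9159 counts in MI samples and 8922 to 9564 in vehicle samples, against 731 to 1350 in age-matched controls. The 5 leukocyte probes, 4 of which passed the threshold in some lane, summed to 270 to 1336 counts in MI samples and 1256 to 1500 in vehicle samples, against 211 to 356 in age-matched controls. Of 4 fibroblast probes 3 passed, with sums of 481 to 1041 in MI and 825 to 1033 in vehicle, against 159 to 298 in age-matched controls, and both smooth muscle probes passed, with 2174 to 4866 in MI and 5840 to 6948 in vehicle, against 2192 to 3347 in age-matched controls. These are raw sums, and lane depth differed: vehicle lanes held 122854 to 137746 rat miRNA counts and age-matched control lanes 36977 to 62663. MI lanes held 40381 to 77375. The 5 cardiomyocyte probes summed to 37186 to 40272 counts in vehicle and 9262 to 17563 in MI, against 12900 to 22261 in age-matched controls. The sums were not tested between groups. The neuronal list had 1 of 7 probes above background in any lane (miR-128), and the erythroid, liver, islet and epithelial lists had none of 2, 1, 2 and 7. In RNA from a whole preparation, fewer cells of a type and less RNA per cell cannot be told apart, and the part of these other cells in the miR-409-5p values was not tested.

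With all 420 miRNAs tested, miR-543 was the only other member called. It was higher in MI than in age-matched controls, at 1.03 (SE 0.33, edgeR adjusted p = 0.039). This fit differs from the filtered one in its TMM scale as well, and miR-543 was not called there. Of the 47 members, 1 was thus called higher and 1 lower in MI, where 8.81% of all 420 miRNAs were called higher and 1.43% lower. No member was called in vitro (2 at an unadjusted p under 0.05, 5.95% of all miRNAs called), in in vivo DOX against age-matched controls (5 unadjusted, 1.19% called) or in in vivo DOX against MI (4 unadjusted, 7.62% called), all from edgeR's quasi-likelihood test.

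In 3 of 5 comparisons the sign of the members' median fold change depended on the scaling. On the scale of the tested miRNAs, the median log2 fold change of the 47 members was 0.68 for in vitro DOX against vehicle, and that of the 13 negative and spike-in probes was 0.59. For MI against age-matched controls the medians were -0.68 for the members and -0.93 for the control probes, and for vehicle in vitro against age-matched controls -0.79 and -1.03. Scaling on the positive controls moved the MI medians to 0.57 for the members and 0.33 for the control probes, and the vehicle medians to -0.01 and -0.26. For in vivo DOX against age-matched controls the member medians were -0.26 and 0.09 on the 2 scales, with the never-detected other miRNAs at -0.28 and 0.06. There the control probes lay lower, at -0.65 and -0.33, and their sign did not turn.

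**Figure D4:**
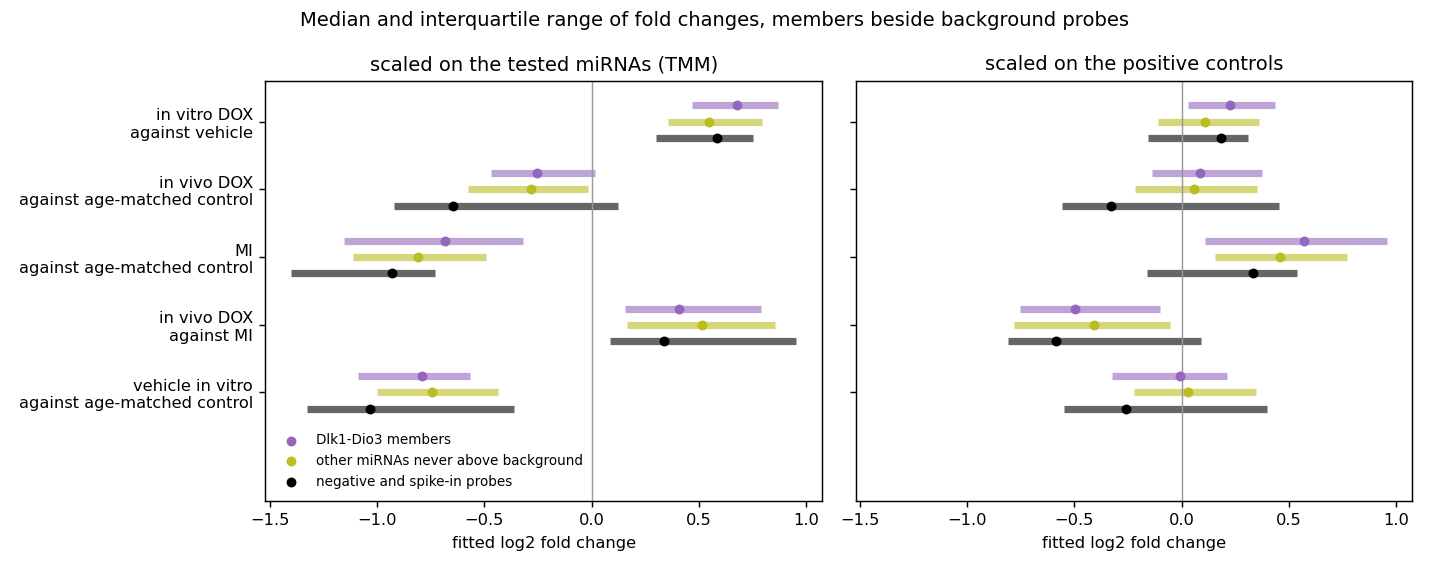
Median (point) and interquartile range (bar) of the fitted log2 fold change (horizontal axis) for the 47 members, the 238 other rat miRNAs never above background and the 13 negative and spike-in probes in 5 comparisons, scaled on the tested miRNAs (left) and on the positive controls (right). The ranges of the members and of the control probes overlap in each comparison, and the MI median turns from -0.68 to 0.57 between the 2 scalings.

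More members were called when the unfiltered counts were put on the scale of the tested miRNAs. There 9 of 47 members were called lower in vehicle in vitro than in age-matched controls and 7 lower in MI, where 12.9% and 16% of all 420 miRNAs were called lower. In vitro, 4 members (miR-323, miR-369-3p, miR-665 and miR-667) were called higher in DOX, against 6.9% of all miRNAs, and 1 member (miR-376b-5p) was called higher in in vivo DOX than in MI, also against 6.9%. The 7 in MI were miR-341, miR-376b-3p, miR-376c, miR-409-5p, miR-493, miR-494 and miR-496, and none but miR-409-5p was called without that scaling. With positive-control scaling of the unfiltered counts 4 members were called: miR-136 and miR-543 were higher in MI (15% of all miRNAs called higher), miR-127 was lower in in vivo DOX than in MI (7.38% called lower), and miR-409-5p was lower in vehicle in vitro than in age-matched controls (0.238% called lower). miR-136 had 5, 8 and 3 counts in MI samples, against 3, 2 and 5 counts in age-matched controls, all below the lane thresholds.

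Added together, the 47 members made up 0.42% to 0.90% of the rat miRNA counts of a lane. Their share was 0.656% ± 0.140 in in vitro DOX and 0.441% ± 0.037 in vehicle (SD, n = 3 each). It was 0.645% ± 0.197 in in vivo DOX and 0.507% ± 0.080 in MI, against 0.772% ± 0.112 in age-matched controls (SD, n = 3 each). On this scale MI lay below all age-matched controls and in vitro DOX above all vehicle samples. Per 1000 positive-control counts MI was instead the highest group, at 42.8 ± 12.6 against 27.0 ± 3.57 in age-matched controls, and in vitro DOX, at 30.0 ± 8.08, overlapped vehicle cells at 25.6 ± 1.84. Against the negative probes of the same lane the ratio was 0.80 ± 0.02 in in vitro DOX and 0.79 ± 0.06 in vehicle, and 0.83 ± 0.10 in in vivo DOX and 1.04 ± 0.25 in MI against 0.79 ± 0.07 in age-matched controls. In 14 of 15 lanes the summed member counts were below 47 times the mean of the negative probes.

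**Figure D5:**
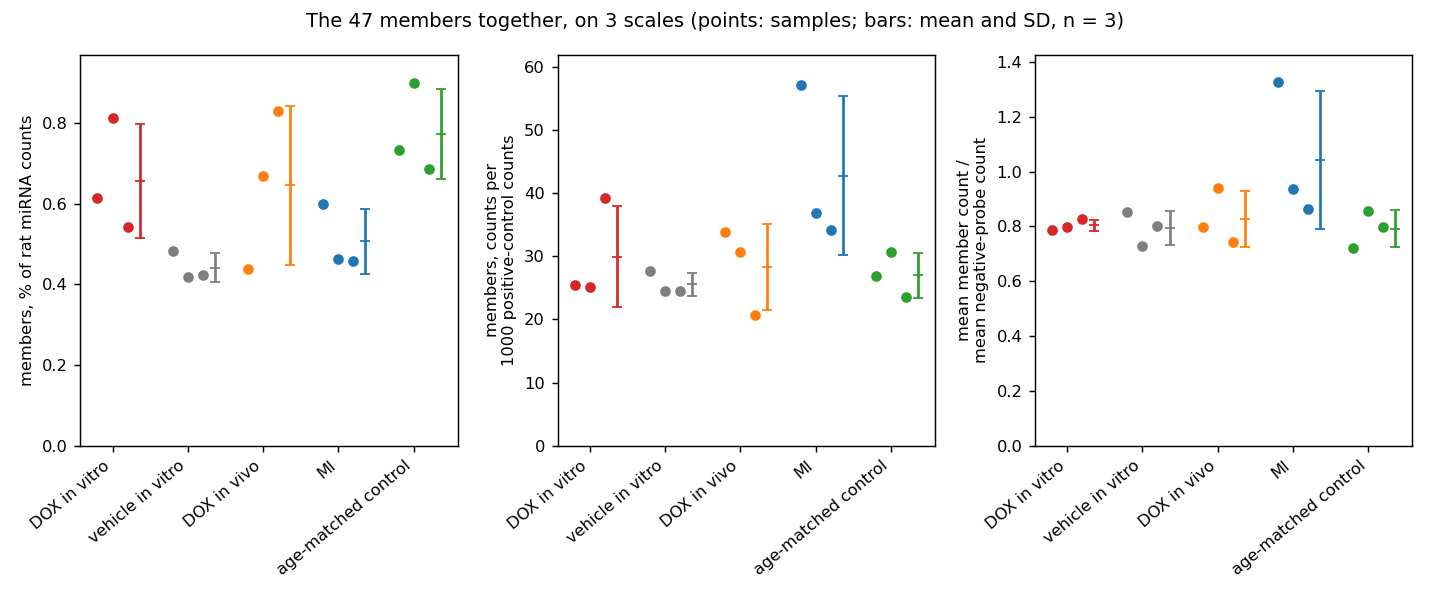
The 47 members together in each sample (points) with the group mean and SD (bars, n = 3): percent of all rat miRNA counts, counts per 1000 positive-control counts, and mean member count over mean negative-probe count. MI lies below the age-matched controls on the first scale (0.46% to 0.60%) and above them on the second (34.1 to 57.2). Vehicle has the lowest mean on the first scale. On the third, all samples except MI sample 1 lie between 0.72 and 0.94.

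The authors' deposited tables of quantile-normalized group means list members at a similar low level. In the authors' deposited table for in vivo DOX against age-matched controls, 2 of 47 members had a p-value below 0.05, miR-493 (means of 17.6 in DOX and 28.7 in controls) and miR-496 (16.7 in DOX and 30.8 in controls), where 9.76% of all probes had one. In the authors' deposited table for in vitro DOX against vehicle it was 1 member, miR-667 (means of 35.9 in DOX and 24.8 in vehicle), against 14.5% of all probes. In the authors' deposited table for MI against age-matched controls it was none of the 44 members listed, against 12% of the probes. miR-409-5p had means of 16.2 in MI and 72.4 in age-matched controls in the authors' deposited table, without a p-value below 0.05.

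The panel also held 13 probes for miRNAs of the same interval whose numbers are not on the list. Of these, 10 were never above background. miR-3578 and miR-3592, both on the minus strand, passed in 1 lane each. miR-544, encoded on the plus strand between Mir539 and the end of the cluster, passed in 14 of 15 lanes and was therefore better detected than any of the 47 members. It had 52, 62 and 45 counts in DOX-treated cells in vitro, against 76, 57 and 50 counts in vehicle. In vivo it had 104, 74 and 71 counts in DOX hearts and 12, 34 and 16 counts in MI hearts, against 30, 42 and 55 counts in age-matched controls. Its log2 fold change was -1.17 in MI against age-matched controls (SE 0.30, edgeR adjusted p = 0.0041) and 1.49 in in vivo DOX against MI (SE 0.29, edgeR adjusted p = 0.00061). It was -0.84 in vehicle in vitro against age-matched controls (SE 0.27, edgeR adjusted p = 0.031). On this scale the control probes had medians of -0.93 in MI, 0.34 in in vivo DOX against MI and -1.03 in vehicle. With positive-control scaling none of the 3 was called, at 0.09 in MI (edgeR adjusted p = 0.788), 0.57 in in vivo DOX against MI (edgeR adjusted p = 0.155) and -0.06 in vehicle (edgeR adjusted p = 0.866). The vehicle call was also lost with DESeq2 (DESeq2 adjusted p = 0.103), limma (limma adjusted p = 0.080) and background subtraction (edgeR adjusted p = 0.113). It held with housekeeping scaling (edgeR adjusted p = 0.019). Of the fits leaving out 1 sample, only that without age-matched control sample 2 kept it (edgeR adjusted p = 0.046). Without the filter the MI call was lost (-0.57, edgeR adjusted p = 0.280). With the main settings, the in vitro and in vivo DOX effects on miR-544 were 0.43 (edgeR adjusted p = 0.184) and 0.32 (edgeR adjusted p = 0.422).

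Another of the 13, miR-3581, is the antisense product of the Mir409 hairpin, and RefSeq names its mature sequence miR-409b. Its reverse complement holds the whole of miR-409a-3p, a run of 20 bases. The miR-3581 probe averaged 19.8 counts and the miR-409-3p probe 16.2. Both were below the threshold in every lane, and a relation between their counts was not tested.

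miR-409b: aGGGGUUCaccgagcaacauucg

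Other miRNA clusters with little known activity in adult heart muscle had similar median counts. Of 13 probes of the X-linked testis cluster, 1 passed the threshold in any lane (miR-465), and their mean counts had a median of 9.60. Of 9 probes of the embryonic miR-290 cluster, 2 passed (miR-290 and miR-295), 1 of them in all 15 lanes, with a median of 8.27 and 1 probe at 288 counts. The Dlk1-Dio3 members, with 2 of 47 and a median of 8.67, were not tested against either list.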

How the data were processed

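Rat miRNAs were counted by nCounter in 15 samples. Per the file headers, the deposited worksheet holds whole barcode counts per probe and lane (handled as estimated counts because lane attributes in the same columns hold decimals), a corrected copy in which the authors lowered 3 marked probes and set values under 1 to 1, and signal sheets that the authors scaled by the positive controls and then by summed miRNA counts. The authors' deposited comparison tables give quantile-normalized signal means, a p-value and a t score; no source used here names the software. One such table matches no labelled group and was not used.

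The members and lists were chosen with earlier results of these data known. Named were every member ever above background, every tested member and the 5 highest others. Counts of all rat miRNAs above lane background in at least 3 of 15 lanes were fitted with edgeR 4.0.16 in R 4.3.3 (TMM, robust quasi-likelihood, 1 mean per group, Benjamini-Hochberg over 109 miRNAs, adjusted p under 0.05), after the procedure was tested on simulated data. Alternatives used DESeq2 1.42.0 (size factors and its own test), limma 3.58.1 on the authors' sum-normalized signal with a pseudocount of 1, other scalings, filters and thresholds, and each replicate left out. Intervals used scipy 1.17.1. Replicate numbers showed no sign of pairing samples: correlations of same-numbered deviations ran from -0.26 to 0.23. With 3 samples per group this check cannot exclude pairing.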

Additional observations from a re-analysis of the deposited data

How the results depend on the processing

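The number of members above lane background (2 in at least 1 lane, 1 in at least 3) was the same with the mean plus 3 SD or the maximum of the negative probes, with the authors' corrected counts and without any 1 sample. It was 8 and 2 with the mean plus 1 SD, and 35 and 17 with the mean plus 2 SD of the spike-in probes, an alternative added after seeing the data. With the filter, no member was called in any of the 6 comparisons with the main settings or the replicate block (0 in each). The same held with DESeq2, DESeq2 size factors, housekeeping scaling, background subtraction and the authors' corrected counts. It also held with limma, with the compared groups alone, and without any 1 sample (0 to 0). Replicate numbers showed no sign of pairing the samples. A filter of all 15 lanes left no member to test. The calls that appeared were, in MI against age-matched controls, 1 with positive-control scaling, 1 without the 3 least typical samples, 2 without the filter, 2 without the filter on positive-control scaling and 7 without it on the scale of the tested miRNAs. In vehicle in vitro against age-matched controls they were 1, 1 and 9 in those 3 unfiltered fits, in in vivo DOX against MI 1 on each of the last 2 scales, and in in vitro DOX against vehicle 4 on the last. With no filter, the replicate block left 2 calls in MI and 1 in vehicle against age-matched controls, and without in vivo DOX sample 1 miR-376b-5p was called in in vivo DOX against MI (1.58, edgeR adjusted p = 0.024). The cause was not tested.

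The log2 ratio of the members' summed share was 0.57 for in vitro DOX against vehicle, -0.61 for MI against age-matched controls, 0.35 for in vivo DOX against MI and -0.81 for vehicle in vitro against age-matched controls. Relative to the positive controls these were 0.23, 0.66, -0.59 and -0.080, and relative to the negative probes 0.017, 0.40, -0.33 and 0.0062; the ratio for in vivo DOX against age-matched controls stayed within 1 SD. The direction of miR-543 turned in vehicle in vitro against age-matched controls (main -0.16) with DESeq2 (0.053), DESeq2 size factors (0.055), background subtraction (0.19) and positive-control scaling (0.64), and in in vivo DOX (-0.43) and MI (-0.10) against age-matched controls with housekeeping scaling. Leaving out 1 sample gave -0.49 to 0.074 for miR-543 in vitro and -0.25 to 0.018 for vehicle against age-matched controls. For miR-409-5p in vitro it gave -0.53 to 0.023, and the scale of the tested miRNAs gave 0.22. Without age-matched control sample 3, miR-409-5p was also called in in vivo DOX against age-matched controls (-2.09, edgeR adjusted p = 0.0091 with every miRNA tested). That fit keeps only the age-matched controls in which miR-409-5p passed the threshold. Counts of this size limit all these values: 41 of the 47 members had fewer than 15 counts in at least 8 lanes.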
